A study of Homo sapiens with 6 samples.

Results

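The EGF receptor (ERBB) family, its ligands and the receptor inhibitor ERRFI1 were examined in YAPC cells, a human pancreatic ductal adenocarcinoma (PDA) line, with and without forced expression of the transcription factor GLI2. The set holds 10 genes picked by symbol, namely the receptors EGFR, ERBB2 and ERBB3, the ligands TGFA, EREG, AREG, HBEGF, BTC and NRG1, and ERRFI1. All 10 were found among the 27024 entries of the deposited table, which gives a value per gene and library. The data are 6 RNA-seq libraries from YAPC-rtta cells, which carry the reverse tetracycline transactivator. In 3 of them the cells also carried GLI2 in the vector pRetroX-Tight-Puro (iGLI2), and in the other 3 they carried the same vector without an insert (iEV). Doxycycline (Dox), which switches the vector on, was given to both lines for 6 days, so all the controls were exposed to the drug as well. By the study's methods the GLI2 cDNA is human with a C-terminal 3xFlag tag, and whether either line is a single clone is not given in the sources used here. The labels number the libraries of a line 1 to 3 without saying whether they came from separate cultures, so p-values measure the spread between these libraries, which may be technical. The titles also carry codes whose meaning is not given, YRE1A, YRE1B and YRE2A for iEV and YRG1A, YRG1B and YRG2B for iGLI2, in which the third libraries do not match.

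ERBB receptors are tyrosine kinases that pair up when a ligand binds and then signal through RAS, PI3-kinase and STAT proteins. TGFA and AREG bind EGFR, EREG, HBEGF and BTC bind EGFR and ERBB4, and NRG1 binds ERBB3 and ERBB4, whereas ERBB2 has no known ligand and serves as a partner for the others. The ligands are made as membrane-anchored precursors that metalloproteases cut loose. ERRFI1, also called MIG6, is made in response to receptor signaling and blocks the EGFR kinase. In the pancreas, TGFA and EGFR are known for their part in the change of acinar cells into duct-like cells and in the growth of pancreatic tumors.

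Levels were read as FPKM, since the depositors named no unit. In FPKM, fragments are divided by transcript length and library total, so that levels can be ordered between genes. Wherever 3 values of a line are given, they follow the order of replicates 1, 2 and 3. The read depth is unknown, and no counting error can be given. Total FPKM was 981344 to 1082687 in iEV and 803149 to 889559 in iGLI2 libraries. The short gene MIR4461 took up 42.6% to 45.4% and 35.7% to 37.7% of it. Whether the scale of the other genes differed between the lines cannot be told from these totals. The median log2 fold change of all genes tested was -0.015 as reported. It was -0.0022 under upper quartile scaling and 0.055 after leaving out small RNA genes with rescaling. GLI2 was at 0.344 to 0.466 FPKM in the iEV libraries and at 94.5, 207 and 195 FPKM in iGLI2 replicates 1, 2 and 3, as the names of the lines say. Of 7 markers of duct-type epithelium, 5 averaged 1 FPKM or more in each line, with a summed level of 1914 to 2064 FPKM in iEV and 1731 to 2014 FPKM in iGLI2 libraries. Within this sum MUC1 was at 20.4 to 24.1 FPKM in iEV and lower, at 3.38 to 3.93 FPKM, in iGLI2 libraries, while EPCAM (396 to 418 against 521 to 526 FPKM) and CDH1 (51.0 to 56.3 against 64.8 to 72.5 FPKM) were higher without overlap. KRT8 and KRT18 were listed at 0 in all libraries, which was not read as absence. The 6 fibroblast markers summed to 1.36 to 1.57 FPKM in iEV and 2.31 to 3.02 FPKM in iGLI2 libraries, nearly all of it from COL1A1, with DCN listed at 0. The 6 immune markers summed to 13.6 to 17.7 and 8.72 to 17.1 FPKM, most of it from LYZ, and the 4 endothelial markers summed to at most 0.599 FPKM in any library. Whether these levels bear on the results was not tested. Differences between the lines were tested with limma on log2(FPKM + 1) for the 12493 genes that averaged 1 FPKM or more, two-sided, with Benjamini-Hochberg adjustment over all of them and a threshold of 0.05. Fold changes on this scale are held down in genes with low values, so the ratio of mean FPKM is given as well. In bulk libraries, fewer cells that express a gene and less RNA per cell cannot be told apart.

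None of the 3 receptors passed the test between GLI2-expressing and control cells, with 95% intervals for the fold that lay within 0.784 to 1.27, while ligands moved in opposite directions. TGFA rose from 37.7 to 100.9 FPKM, EREG fell from 53.4 to 25.6 FPKM, and ERRFI1 fell from 92.3 to 37.5 FPKM. Among the 10 genes, TGFA, NRG1 and BTC were higher and EREG, HBEGF and ERRFI1 were lower in iGLI2 cells in limma, with adjusted p from 9.68e-04 to 0.0445. Over all genes tested, 21.9% were called, 10.1% as higher and 11.8% as lower. The 10 genes were chosen with earlier results of these data known. The same 6 genes, and none of the other 4, had libraries that did not overlap between the lines, which held for 42.0% of all genes tested. The median log2 fold change was 0.0017 over the 10 genes and -0.015 over all genes tested. Each of the 10 genes was expressed well enough to enter the test.

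**Figure D1:**
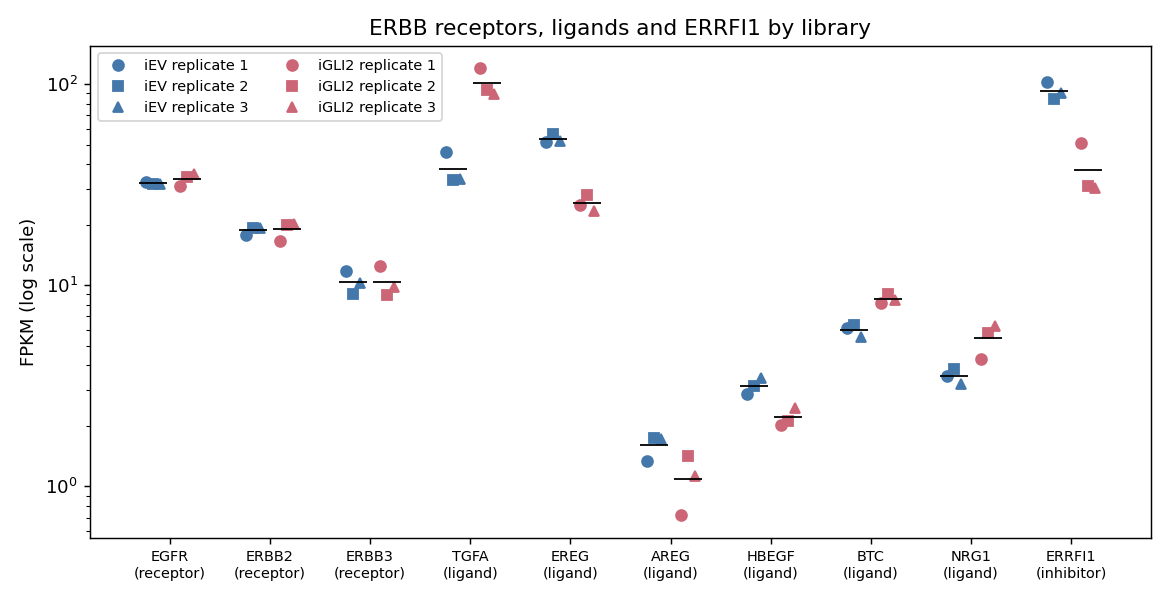
FPKM of each gene (log axis) in the 3 iEV (blue) and 3 iGLI2 (red) libraries, with the replicate number given by the symbol and the mean of a line by the bar. The receptors overlap between the lines, the iGLI2 libraries lie above all iEV libraries for TGFA, BTC and NRG1, and they lie below them for EREG, HBEGF and ERRFI1.

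The 3 receptors were first compared. EGFR lies on chromosome 7 of hg19 from 55086725 to 55275031 on the plus strand. It had 32.7, 31.9 and 31.8 FPKM in the control line against 31.0, 34.7 and 35.7 FPKM with GLI2. The iEV values sat inside the range of the iGLI2 values. limma gave a log2 fold change of 0.069 (adjusted p = 0.524), and its 95% interval of -0.10 to 0.24 corresponds to a fold between 0.932 and 1.18.

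ERBB2, on chromosome 17 from 37844337 to 37884915 on the plus strand, is the partner receptor amplified in a share of breast and gastric cancers. Its values were 17.8, 19.3 and 19.2 FPKM in the control line against 16.6, 19.9 and 20.2 FPKM with GLI2, with the lines overlapping. In limma the log2 fold change came to 0.0058 (limma adjusted p = 0.973), with a 95% interval for the fold of 0.862 to 1.17. The ends of the locus overlap PGAP3 and MIEN1 on the opposite strand, and the sources used here do not say whether strand was used in counting, so their reads may be mixed there. The annotation likewise places a protein-coding gene on the same strand over the end of ERBB3 (ENSG00000257411) and another within NRG1 (ENSG00000286131).

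ERBB3, on chromosome 12 from 56473809 to 56497291 on the plus strand, encodes a receptor with a weak kinase that couples strongly to PI3-kinase. The study lists it among its classical subtype genes. It had 11.8, 9.04 and 10.2 FPKM in the control line against 12.4, 8.92 and 9.78 FPKM with GLI2. Replicate 1 was the highest library in each line, and the lines overlapped throughout. Its log2 fold change came to -0.0025 (limma adjusted p = 0.992), and the 95% interval for the fold ran from 0.784 to 1.27, the widest of the 3 receptors in this fit. With the replicate number as a block, the SE of ERBB3 went from 0.14 to 0.049. That was under those of EGFR (0.066) and ERBB2 (0.055) with the same block. The sign of the ERBB3 difference turned under upper quartile scaling, quantile normalization and rescaling without small RNA genes, and that of ERBB2 and ERBB3 also turned with some single libraries left out. Differences within these intervals are not excluded here.

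The make-up of the receptors within a library does not depend on the scaling between libraries. EGFR held 52.4% ± 0.506 of the summed receptor FPKM in iEV and 53.5% ± 1.60 in iGLI2 cells (SD, n = 3 each). ERBB2 held 30.7% ± 1.84 and 29.9% ± 1.99, and ERBB3 held 16.9% ± 1.96 and 16.5% ± 3.59 (SD, n = 3 each). EGFR was thus the most abundant receptor in every library, at 2.50 to 3.88 times the level of ERBB3. The fourth receptor, ERBB4, stayed under the limit for testing, at a mean of 0.0131 FPKM in the control line and 0.0214 FPKM with GLI2.

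TGFA, which encodes transforming growth factor alpha, had the largest log2 increase among the 10 genes. It lies on chromosome 2 from 70674412 to 70781147 on the minus strand. Its values were 45.9, 33.2 and 33.9 FPKM in the control line against 119.7, 93.7 and 89.3 FPKM with GLI2. The lowest iGLI2 library was well above the highest iEV library, and replicate 1 was the highest in each line. The means of 37.7 ± 7.15 and 100.9 ± 16.4 FPKM (SD, n = 3 each) gave a ratio of 2.68. On the log2 scale the increase was 1.40 (SE 0.17, limma adjusted p = 0.00326), with a 95% interval for the fold of 1.99 to 3.51 and rank 279 among the increases of the 12493 genes. It stayed between 1.27 (without iGLI2 replicate 1) and 1.55 (without iEV replicate 1) whichever library was left out.

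EREG, which encodes epiregulin, moved the other way. Its locus is on chromosome 4 from 75230860 to 75254477 on the plus strand. It had 51.6, 56.6 and 52.1 FPKM in the control line against 25.1, 28.2 and 23.4 FPKM with GLI2. The libraries of a line were close together and the lines were far apart. The ratio of the means of 53.4 ± 2.77 and 25.6 ± 2.44 FPKM (SD, n = 3 each) was 0.479. The decrease on the log2 scale (-1.04, SE 0.086) had a limma adjusted p of 9.68e-04, the smallest among the 10 genes. Leaving out any library kept it between -1.11 and -0.98.

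AREG, the gene of amphiregulin, lies next to EREG on the same strand, from 75310815 to 75320726, with 56337 bases between the loci. The study lists it among its basal-like subtype genes. Its level was the lowest of the 10 genes, with 1.34, 1.75 and 1.71 FPKM in the control line against 0.717, 1.41 and 1.13 FPKM with GLI2. The lines overlapped, since iGLI2 replicate 2 was above iEV replicate 1. The log2 fold change of -0.33 (standard error 0.15) did not pass the test (limma adjusted p = 0.187, 95% interval -0.70 to 0.047). The table has another entry named AREG at 75480591 to 75490485, listed at 0 in all 6 libraries. In the GRCh37 genome, 93.0% of the 50-base words of the first locus also occur in the second, so the level of AREG depends on how reads that match both were handled, which is not given in the sources used here.

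BTC, which encodes betacellulin, lies at the other end of this group of ligand genes, from 75671448 to 75719882 of chromosome 4 on the minus strand. It had 6.09, 6.35 and 5.51 FPKM in the control line against 8.17, 9.08 and 8.41 FPKM with GLI2. Every iGLI2 library was above every iEV library. The means were 5.99 ± 0.432 and 8.55 ± 0.472 FPKM (SD, n = 3 each), a ratio of 1.43. limma put the log2 fold change at 0.45 (SE 0.073, adjusted p = 0.00959). The call held with each library left out in turn, with a highest limma adjusted p of 0.04996, just inside the threshold, without iGLI2 replicate 2. EPGN, the gene of epigen, lies upstream of EREG, 48339 bases away, and had 0.0183 to 0.0740 FPKM in iEV and 0.0649 to 0.202 FPKM in iGLI2 libraries, which is under the limit for testing. Within this stretch of chromosome 4, EREG was thus lower and BTC higher in iGLI2 cells, and AREG did not pass the test.

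HBEGF, which encodes heparin-binding EGF, is on chromosome 5 from 139712428 to 139726188 on the minus strand. It had 2.89, 3.16 and 3.44 FPKM in the control line against 2.02, 2.11 and 2.46 FPKM with GLI2, with a gap between the lines. The means of 3.16 ± 0.278 and 2.20 ± 0.233 FPKM (SD, n = 3 each) gave a ratio of 0.695. In limma this was a log2 fold change of -0.38 (SE 0.091, adjusted p = 0.0337). The call was lost without iEV replicate 2 (0.110), without iEV replicate 3 (0.107) and without iGLI2 replicate 2 (0.107), and when genes with low values were kept in the test (0.0523, limma adjusted p in each case).

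NRG1, which encodes neuregulin 1 and has a long locus on chromosome 8 from 31497268 to 32622558 on the plus strand, had 3.52, 3.85 and 3.24 FPKM in the control line. With GLI2 it had 4.32, 5.79 and 6.24 FPKM. The lines did not overlap, although iGLI2 replicate 1 was close to the iEV libraries. The ratio of the means of 3.54 ± 0.307 and 5.45 ± 1.01 FPKM (SD, n = 3 each) was 1.54. limma estimated a log2 fold change of 0.50 (SE 0.13, adjusted p = 0.0445). Without iGLI2 replicate 1 it was 0.63 (limma adjusted p = 0.00665). The call was lost when any of the other 5 libraries was left out, with limma adjusted p of 0.104, 0.101 and 0.150 without iEV replicates 1, 2 and 3 and 0.142 and 0.126 without iGLI2 replicates 2 and 3. It was also lost when genes with low values were kept in the test (0.0701).

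ERRFI1 had the largest log2 decrease of the 10 genes. It lies on chromosome 1 from 8071779 to 8086393 on the minus strand. The values were 103, 84.0 and 90.2 FPKM in the control line against 51.0, 31.1 and 30.5 FPKM with GLI2. The lines were well separated, and replicate 1 was again the highest library in each. The means of 92.3 ± 9.42 and 37.5 ± 11.6 FPKM (SD, n = 3 each) gave a ratio of 0.407. This was -1.31 on the log2 scale (SE 0.21, limma adjusted p = 0.00923), rank 189 among the decreases of the 12493 genes. Without iGLI2 replicate 1 it was -1.55 (limma adjusted p = 0.00102). With each other library left out it stayed between -1.38 and -1.19, with limma adjusted p up to 0.0448.

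**Figure D2:**
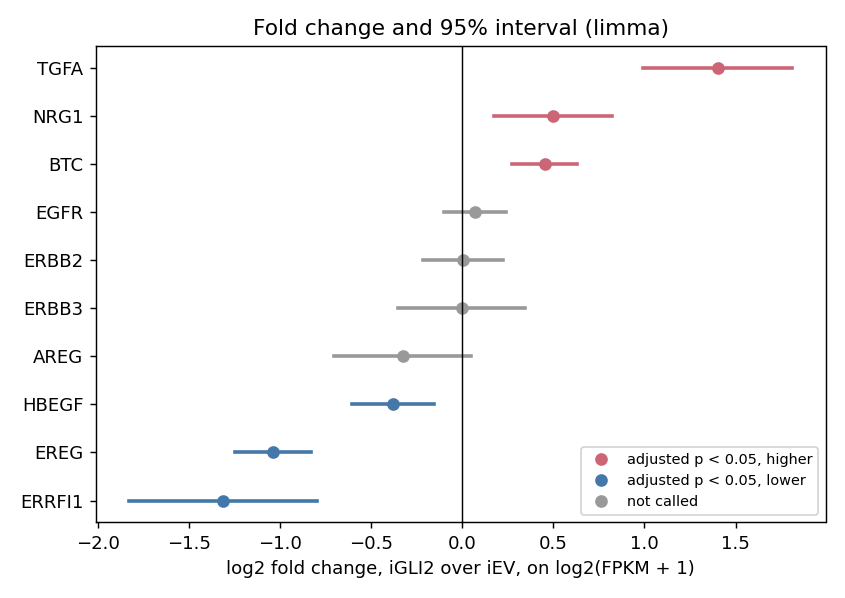
Log2 fold change of each gene with GLI2 over the control line on the log2(FPKM + 1) scale (point) with its 95% interval from limma (line), red where higher and blue where lower at an adjusted p under 0.05. The fold changes run from -1.31 for ERRFI1 to 1.40 for TGFA, and the intervals of the receptors and of AREG include 0.

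Sequence upstream of the start site is shown for EREG and its neighbor AREG, and for the other genes that were lower in iGLI2 cells, to compare their promoters. From the RefSeq promoter table (GRCh38.p14), 8 of the 10 genes were searched, in 10 windows of 250 bases before a start site, each matched to GRCh37. ERBB3 has no entry there, and NRG1, which was called higher, was not searched. Each sequence runs 5′ to 3′ on the strand of the gene, from 120 to 21 bases before the RefSeq start, and capitals mark the motifs TATAAA and TGACGTCA, which were searched on both strands. The stretches of HBEGF and ERRFI1 hold neither. That of ERRFI1 does hold the letters tatatata near its end, which a search for the exact letters TATAAA does not mark. The last bases of the AREG and ERRFI1 stretches lie inside the loci of the table, which start further upstream than RefSeq does. The stretches lie at chr4:75230742-75230841 for EREG and chr4:75310733-75310832 for AREG on the plus strand, and at chr5:139726209-139726308 for HBEGF and chr1:8086390-8086489 for ERRFI1 on the minus strand, all in GRCh37.
EREG: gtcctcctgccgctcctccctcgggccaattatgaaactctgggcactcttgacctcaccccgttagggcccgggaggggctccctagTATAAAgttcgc
AREG: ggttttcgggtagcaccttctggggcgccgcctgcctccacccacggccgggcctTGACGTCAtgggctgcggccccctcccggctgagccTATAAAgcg
HBEGF: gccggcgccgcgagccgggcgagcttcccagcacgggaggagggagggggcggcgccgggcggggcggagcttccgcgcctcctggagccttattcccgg
ERRFI1: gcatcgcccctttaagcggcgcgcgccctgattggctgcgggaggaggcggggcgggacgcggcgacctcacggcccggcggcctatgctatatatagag

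EREG and AREG share TATAAA at a like distance, from 32 to 27 bases before the start in EREG and from 29 to 24 in AREG, where it lies inside the locus of the table. The window of an inner start of EGFR, which did not pass the test, also holds it, from 36 to 31 and from 146 to 141 bases before that start. In AREG, TGACGTCA, the letters of the cAMP response element, lie 65 to 58 bases before the start. Anywhere in the window and on either strand, TATAAA was found in 10.7% and TGACGTCA in 1.65% of the 35116 promoter windows of the same length. The share of windows with TATAAA at the distance seen in EREG and AREG was not counted. Both motifs were chosen after the sequences had been read. GACCACCCA, the GLI consensus, was in none of the 10 windows and in 0.199% of all windows. TGANTCA, the AP-1 consensus, was in the ERBB2 window and in the same inner EGFR window, and in 6.57% of all windows. These are matches of letters in short windows and show no binding. The start sites of TGFA and BTC lie far enough inside their loci in the table that the same stretch would fall wholly within them, and they are not shown.

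By the listed levels, the shift among the ligands changed which of them led. The 6 ligands together had 111, 105 and 99.9 FPKM in the control line against 160.1, 140.3 and 131 FPKM with GLI2, so the summed level was higher in each iGLI2 library. EREG held 46.4%, 54.0% and 52.1% of the sum in iEV replicates 1, 2 and 3, and 15.7%, 20.1% and 17.9% in iGLI2 replicates 1, 2 and 3. TGFA held 41.2%, 31.6% and 33.9% in the iEV libraries, and 74.8%, 66.8% and 68.2% in the iGLI2 libraries. By these levels EREG was the leading ligand in 3 of 3 iEV libraries and TGFA in 3 of 3 iGLI2 libraries. The sum and the shares take AREG at its listed level. That level depends on how reads matching both AREG loci were handled, so its true place among the ligands is not known.

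The ratio of TGFA to EREG in a library went from 0.709 ± 0.159 to 3.97 ± 0.731 (SD, n = 3 each). With AREG at its listed level, AREG, HBEGF, BTC and NRG1 each held at most 6.47% of the sum in any library. The shares of AREG and HBEGF were lower in each iGLI2 library than in any iEV library. AREG held 0.448% to 1.00% against 1.20% to 1.72%, and HBEGF held 1.26% to 1.88% against 2.59% to 3.45%. A higher sum, with TGFA as its largest part, by itself lowers the shares of the other ligands. In FPKM, AREG overlapped between the lines and did not pass the test (limma adjusted p = 0.187). Although BTC and NRG1 had higher FPKM in iGLI2 cells, their shares overlapped between the lines. These shares describe transcripts and not released protein.

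**Figure D3:**
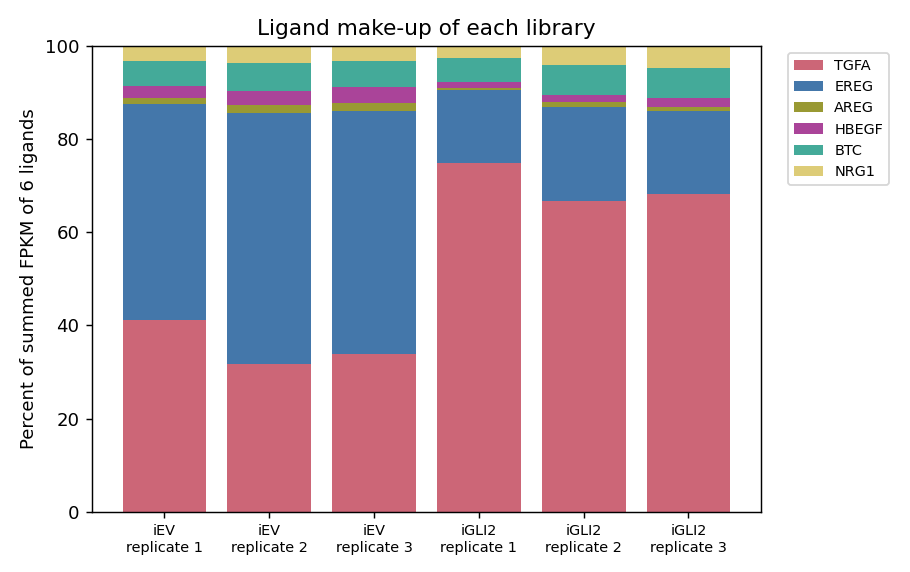
Share of each ligand gene in the summed FPKM of the 6 ligands, as a percent, for each of the 6 libraries. EREG is the largest part in the iEV libraries, at 46.4% to 54.0%, and TGFA is the largest in the iGLI2 libraries, at 66.8% to 74.8%. AREG enters at its listed level, which depends on how reads matching both its loci were handled.

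Set against its target, the inhibitor fell as well. The ratio of ERRFI1 to EGFR was 3.14, 2.64 and 2.84 in iEV replicates 1, 2 and 3 and 1.64, 0.897 and 0.855 in iGLI2 replicates 1, 2 and 3. The ratio of ERRFI1 to TGFA was 2.23 to 2.66 in the iEV libraries and 0.332 to 0.426 in the iGLI2 libraries. Neither ratio overlapped between the lines, which follows from the levels of these genes given above and is not a separate result.

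In iEV cells the order of levels was ERRFI1, EREG, TGFA, EGFR, ERBB2, ERBB3, BTC, NRG1, HBEGF and AREG, from 92.3 to 1.60 FPKM. Only NRG1 and HBEGF, next to each other in this order, had libraries that overlapped. In iGLI2 cells the order was TGFA, ERRFI1, EGFR, EREG, ERBB2, ERBB3, BTC, NRG1, HBEGF and AREG, from 100.9 to 1.09 FPKM. There the libraries of ERRFI1 and EGFR overlapped, and so did those of ERBB3 and BTC. The place of AREG in both orders rests on its listed level, which depends on how reads matching both its loci were handled. Among the 12492 other genes tested, those whose log2(FPKM + 1) followed TGFA most closely over the 6 libraries included NUDCD3, ABHD3, ASCC1 and FAM3C, each with Pearson's r of 0.998 to 0.999. With 2 groups of 3 libraries such values are common, and 558 genes had r above 0.95.

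Other genes of the receptor pathway were taken from 4 lists of 53 symbols in all, of which 45 entered the test. GLI2-expressing cells had 11 of them higher and 4 lower (33.3% called, against the background of 21.9%), with a median log2 fold change of 0.12. The lists were chosen with earlier results of these data known, and whether that choice raised the share was not tested. The increases numbered 4 without iEV replicate 2 or iEV replicate 3, 5 without iGLI2 replicate 2 or iGLI2 replicate 3, 7 without iEV replicate 1 and 13 without iGLI2 replicate 1. Further ligands were little expressed. EGF had 0.866 to 1.26 FPKM in iEV and 1.40 to 2.26 FPKM in iGLI2 libraries, did not overlap between the lines and did not pass the test (log2 fold change 0.47, limma adjusted p = 0.0706). NRG4, a ligand of ERBB4, fell from 2.07 ± 0.511 to 1.02 ± 0.113 FPKM (SD, n = 3 each), which limma put at -0.59 on the log2 scale (adjusted p = 0.0367). Its call was lost without iEV replicate 1 (0.0874), iEV replicate 2 (0.120), iGLI2 replicate 2 (0.111) or iGLI2 replicate 3 (0.0954). NRG2, like EPGN and ERBB4, was under the limit for testing, and NRG3 was listed at 0 in all libraries.

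Of 5 genes for the release of ligands, RHBDF2 alone passed the test, a share of 20% that is close to the 21.9% of all genes. It encodes iRhom2, which brings the protease ADAM17 to the cell surface. RHBDF2 had 11.5, 14.8 and 15.2 FPKM in the control line against 18.8, 29.0 and 30.3 FPKM with GLI2. Its increase of 0.85 on the log2 scale passed (limma adjusted p = 0.0340), and did so without iGLI2 replicate 1 (1.06, adjusted p = 0.00601) but not with any other library left out (0.0881 to 0.115). ADAM17 itself averaged 16.9 FPKM in the control line and 16.1 FPKM with GLI2 (log2 fold change -0.070, limma adjusted p = 0.426) without overlap between the lines, and ADAM10 had 26.1 and 22.1 FPKM (-0.24, adjusted p = 0.241).

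Of the 23 adaptors and effectors, 20 were tested, and 2 were higher and 2 lower, a share of 20% that is close to the 21.9% of all genes. PIK3R1, the regulatory subunit p85 alpha of PI3-kinase, changed most. It had 6.25, 5.69 and 5.54 FPKM in the control line against 20.0, 22.3 and 21.6 FPKM with GLI2, or 1.71 on the log2 scale (SE 0.070, limma adjusted p = 1.32e-04). The catalytic subunit PIK3CB, named here after its values were seen, went from 15.3 ± 0.446 to 19.4 ± 1.93 FPKM (SD, n = 3 each, log2 fold change 0.32, limma adjusted p = 0.0393). PIK3R1 was the only gene of the list called higher when genes with low values were kept, under upper quartile scaling or quantile normalization, and with any library but iGLI2 replicate 1 left out. HRAS fell from 27.9 ± 1.52 to 19.9 ± 2.03 FPKM (SD, n = 3 each, log2 fold change -0.47, limma adjusted p = 0.0162), and STAT3 fell from 51.8 ± 0.636 to 41.9 ± 0.706 FPKM (log2 fold change -0.30, limma adjusted p = 0.0112).

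The decreases of HRAS and STAT3 were not called without iEV replicate 2, iEV replicate 3 or iGLI2 replicate 2, with limma adjusted p between 0.0509 and 0.0742.

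Of 18 genes that attenuate receptor signaling or move receptors, 8 were higher and 1 was lower (50% called, against 21.9% of all genes), with a median log2 fold change of 0.23. This list too was chosen with earlier results of these data known, so its share is not a test of these genes. LRIG3, of a family of membrane proteins best known through LRIG1, a negative regulator of ERBB receptors, rose from 5.12, 6.44 and 7.55 FPKM to 13.8, 23.0 and 21.5 FPKM (log2 fold change 1.45, limma adjusted p = 0.00726). RASA1, a GTPase-activating protein for RAS, rose from 26.9 ± 3.62 to 44.5 ± 1.59 FPKM (SD, n = 3 each, log2 fold change 0.71, limma adjusted p = 0.00590). SH3KBP1, an adaptor in the uptake of receptors, rose from 29.3 ± 1.65 to 47.4 ± 1.83 FPKM (SD, n = 3 each, log2 fold change 0.68, limma adjusted p = 0.00168). CBLB, a ubiquitin ligase for receptors, went from 1.69 ± 0.574 to 3.80 ± 0.997 FPKM (SD, n = 3 each, log2 fold change 0.84, limma adjusted p = 0.0364), a call lost under 7 of 13 alternatives. The remaining increases, in LRIG1, SOCS5, PTPRJ and ERBB2IP, are named after their values were seen.

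PTPN1, a tyrosine phosphatase that acts on EGFR, was the gene of this list that was lower, going from 45.3 ± 1.61 to 34.9 ± 0.180 FPKM (SD, n = 3 each, log2 fold change -0.36, limma adjusted p = 0.00709). The 8 increases of the list became 3 without iEV replicate 2 or iEV replicate 3, 4 without iGLI2 replicate 2 or iGLI2 replicate 3, 6 without iEV replicate 1 and 7 without iGLI2 replicate 1. Over all genes tested, the 1262 increases became 608 to 682 without iEV replicate 2 or 3 or iGLI2 replicate 2 or 3, 1023 without iEV replicate 1 and 1855 without iGLI2 replicate 1. LRIG3, RASA1, SH3KBP1, PIK3R1 and PTPN1 passed the test with any library left out.

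**Figure D4:**
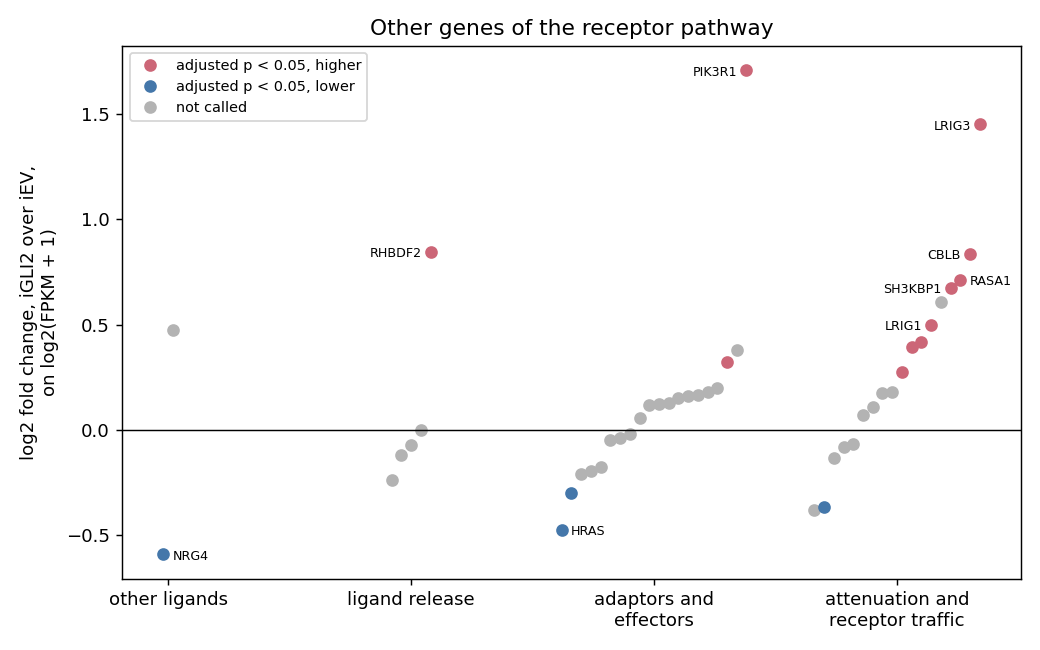
Log2 fold change with GLI2 over the control line, on the log2(FPKM + 1) scale, of the 45 tested genes in 4 lists of the receptor pathway, with points in order of their value within a list. Red points are higher and blue points lower at an adjusted p under 0.05 in limma, and PIK3R1 at 1.71 and LRIG3 at 1.45 stand at the top.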

How the data were processed

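Libraries were made with the Illumina TruSeq RNA kit. Before deposit the authors ran Trimmomatic on the reads, then TopHat2 against hg19, then Cuffdiff (version 2.1.1 in the submitters' processing notes). The gene annotation they counted on is not given in the sources used here. The deposited table names no unit, and its values were read as FPKM from their form and totals. Depth is unknown, so no counting error could be given. Table starts count from 0, so 1 was added. Entries off the primary chromosomes (1252) and lower entries of a repeated name (330) were left out, which left 25442 genes. Values were tested with limma 3.58.1 in R 4.3.3 on log2(FPKM + 1), with a trend on the mean and condition as the only term, tested on simulated data. Only genes averaging 1 FPKM or more were tested. Python 3.11.15 was used for tables and plots. Gene annotation was GENCODE 44 lifted to GRCh37. Groups and replicate numbers came from sample titles, and 0 columns were left without a sample.

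The 10 genes and the 4 pathway lists were chosen with earlier results of these data known. All 10 genes, GLI2 and EPGN were named, with up to 6 called genes of the largest change in each direction from the lists and the 5 genes most correlated with TGFA, the gene of the 10 with the largest absolute change. Some genes that this rule or the lists hold are not reported here. Lists were described by counts and medians, with no set test.

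The alternatives were a pseudocount of 0.1, testing every gene, testing genes averaging 5 FPKM or more, upper quartile scaling, quantile normalization, leaving out small RNA genes with rescaling, the replicate number as a block, limma without the trend, and each library left out in turn.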

Additional observations from a re-analysis of the deposited data

How the results depend on the processing

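Of 137 values of the 10 genes under alternatives, 118 kept their direction and their side of the threshold, 10 lost the call (HBEGF in 4 and NRG1 in 6) and 9 turned sign (ERBB2 in 3 and ERBB3 in 6). ERBB3 was 0.011 under upper quartile scaling, 0.0018 under quantile normalization and 0.069 without small RNA genes, against -0.0025 as reported. With each library left out, ERBB3 ran from -0.13 to 0.090 and ERBB2 from -0.042 to 0.092, with no call. The counts of called members stayed at 2 or 3 in each direction, and a limit of 5 FPKM on the mean removed AREG, HBEGF and NRG1 from the test. For the pathway lists, leaving out libraries gave 4 to 13 genes higher and 1 to 7 lower, with 1 lower without iEV replicate 2 or iGLI2 replicate 2, 2 without iEV replicate 3 and 7 without iGLI2 replicate 1. For all genes it gave 608 to 1855 higher and 615 to 1898 lower, with the most without iGLI2 replicate 1, and 608 to 682 higher and 615 to 828 lower without iEV replicate 2 or 3 or iGLI2 replicate 2 or 3. In addition, a limit of 5 FPKM on the mean gave 824 higher against 1262. Leaving out small RNA genes gave 3012 calls, 59.4% of them higher against 46.0%, and moved the median log2 fold change of all genes from -0.015 to 0.055. The TGFA share of the ligand sum differed by 31.9 to 37.1 percentage points and the EREG share by -35.2 to -31.3.

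The labels do not say that a replicate number marks a shared batch, the codes in the titles do not match for the third libraries, and deviations of same-numbered libraries from their group means correlated at 0.204, 0.0919 and 0.0276 for numbers 1, 2 and 3, so the libraries were not taken as paired. Replicate 1 of iGLI2 correlated best with replicate 1 of iEV, and replicates 2 and 3 of iGLI2 with replicate 2. The replicate block raised the calls over all genes from 2742 to 3928 (1809 higher and 2119 lower), kept the same 6 members called, and gave 14 pathway genes higher and 7 lower. The causes of these changes were not tested.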
